A study of Mus musculus with 38 samples.

Results

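The nuclear pore and nuclear transport receptor genes were taken as the protein-coding mouse genes whose symbols begin with Nup, Ipo or Xpo followed by a digit, or with Kpn or Tnpo. The rule found 43 genes among the 22401 genes with a CDS named in the count tables. The values are ribosome-protected fragments counted over the coding sequence (CDS) of the longest transcript of each gene, from primary cortical neurons of mouse embryos. In this method a biotin ligase, TurboID, labels proteins near it, ribosomes are collected as monosomes, and streptavidin pulls down those that carry biotin. The 38 libraries formed 14 groups, of which 10 had 3 replicates and 4 had 2.

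All cultures expressed TurboID from a doxycycline-inducible lentivirus and all received cycloheximide for 2 min and biotin, for 30 min per the labels. The study's methods give a shorter biotin time for DHPG. TurboID-PSD95 carries elements of the postsynaptic protein PSD95 that take it to dendrites, and Pan-TurboID has no localization signal. Each culture gave an input (the monosomes before streptavidin) and a pulldown. In the KCl experiment, neurons with either ligase were resting or depolarized, that is silenced with tetrodotoxin and DL-AP5 and then given 55 mM KCl for 1 h. The DHPG groups carried TurboID-PSD95 and were given DHPG, which activates group I metabotropic glutamate receptors, at 100 µM for 10 min after the same silencing. The knockdown groups carried TurboID-PSD95 and 20 nM siRNA against eIF4G2, a translation initiation factor, for 72 h, and were resting or depolarized with KCl. Each library came from pooled dishes, so a replicate is a pool of cells and not 1 animal. Libraries with a non-targeting siRNA were not analysed here, and knockdown and experiment cannot be told apart.

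The nuclear pore complex is a ring-shaped channel through the nuclear envelope built from nucleoporins. Scaffold nucleoporins form outer and inner rings, and others carry phenylalanine-glycine repeats that line the channel. Importins bind cargo with a nuclear localization signal in the cytoplasm, exportins bind cargo with a nuclear export signal in the nucleus, and the small GTPase Ran sets the direction of both. In neurons, importins have also been found in dendrites and axons, where they can carry signals from synapses to the nucleus.

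The Nup98 gene encodes a precursor that cuts itself into Nup98 and the scaffold nucleoporin Nup96. The bases that encode the cut are shown because it lies inside a stretch of the CDS whose counts were high in the knockdown pulldowns described below. They lie on the minus strand of mm10 at chr7:102145695-102145721, in segment 19 of the 32 coding segments of the longest transcript. The capitals mark the codons for histidine, phenylalanine and serine, of which the phenylalanine is codon 880 and the serine codon 881.

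Nup98 cut site: gtctccCATTTTTCCaagtatggcctt

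The CDS count of a library was between 2048604 and 14646402. Neuronal markers summed to between 7210 and 12000 CPM (counts scaled to library size) in the inputs. Astrocyte markers summed to between 314 and 1610 CPM, oligodendrocyte lineage markers to between 40.1 and 507 CPM and microglial markers to between 12.1 and 65.5 CPM. Markers of dividing cells summed to between 293 and 416 CPM in the knockdown inputs and between 56.4 and 61.5 CPM in the DHPG inputs. Eif4g2 was 526, 547 and 555 CPM in the resting TurboID-PSD95 inputs and 283 and 282 CPM in the resting knockdown inputs, which is -0.98 on the log2 scale (SE 0.14, edgeR FDR = 0.000127). Dlg4, which encodes PSD95 and of which the ligase construct carries elements, was 3.18 to 4.26 higher in log2 in the TurboID-PSD95 pulldowns than in their inputs. In the depolarized TurboID-PSD95 pulldowns it was 345, 1390 and 5120 CPM, so these 3 replicates stood far apart.

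The members covered a wide range of ribosome occupancy in resting neurons. Per kilobase of CDS, the mean over the 6 resting inputs of the KCl experiment was highest for Kpnb1, importin beta 1, at 176 ± 13.8 CPM per kb (SD, n = 6). The import receptors Tnpo2 (153 CPM per kb), Ipo5 (114 CPM per kb) and Ipo7 (87.7 CPM per kb) followed. Nup62, of the central channel, was the highest nucleoporin at 82.3 CPM per kb. Among the importin alpha adaptors, Kpna1 was at 78.7, Kpna4 at 75.5, Kpna3 at 68.4, Kpna6 at 57.8 and Kpna2 at 14.2 CPM per kb. The inner ring scaffold proteins Nup188 (7.74 CPM per kb) and Nup205 (6.74 CPM per kb), the export receptor Xpo4 (6.13 CPM per kb) and Nup37 (5.06 CPM per kb) were lowest among the genes tested. The ranges of each gene and the next in this order overlapped from Kpnb1 down to Nup37. Nup62cl at 0.468 CPM per kb did not overlap Nup37.

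Of the 43 members, 40 passed the filter on low counts in the KCl, DHPG and input fits. In the knockdown fit and in the fit across experiments 41 passed. Kpna7, an importin alpha of oocytes and early embryos, had 1 count in all 38 libraries. Nup62cl had 125 counts, with 13 libraries at 0. Nup210l, a paralog of Nup210 known from testis, had 100 counts, with 16 libraries at 0. It was tested only in the knockdown fit and in the fit across experiments. It was at 0 in both resting knockdown inputs, and its pulldown counts there were 3 and 0.

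The first comparison asked which members had more ribosome footprints in a pulldown than in its own input. In resting neurons with TurboID-PSD95, 11 of the 40 members tested were higher in the pulldown and 6 were lower. Of all genes tested, 11.5% were higher and 13.5% were lower. The median log2 fold change was 0.35 over the members and -0.05 over all genes. Long scaffold nucleoporins and several import receptors were among the higher members, and Kpna2, Kpnb1 and Nup62 were among the lower ones. In these bulk samples, a change in the mix of cells and a change in each cell cannot be told apart.

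In the inner ring, Nup205, Nup188, Nup93 and Nup155 rose and Nup35 fell. Nup205, the longest of these, was 45.1, 30.8 and 46.6 CPM in the resting TurboID-PSD95 inputs and 134, 76.1 and 118 CPM in the pulldowns. The groups did not overlap, and the log2 fold change was 1.43 (SE 0.38, edgeR FDR = 0.0117). Nup35, which has the shortest CDS of the ring at 978 nt, was 35, 39.7 and 50.1 CPM in the inputs and 19.5, 29.5 and 18.8 CPM in the pulldowns. Its fold change was -0.86 in log2 (FDR = 0.0366).

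In the outer ring, the Y-shaped scaffold complex, Nup160 rose by 0.99 in log2 and the other 5 members had values between 0.16 and 0.78 that did not pass. Nup62 carries the repeats of the central channel. It was 120, 136 and 147 CPM in the inputs and 46.4, 90.0 and 57.8 CPM in the pulldowns, with every pulldown below every input. Its log2 fold change was -1.05 (SE 0.25, edgeR FDR = 0.00615). Nup153 of the nuclear basket, which binds mRNA export and import factors, was lower by -0.53 in log2 (SE 0.20, FDR = 0.0468).

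The importin alpha adaptors, which link cargo to importin beta 1, did not move together. Kpna6 was 92.9, 91.6 and 92.7 CPM in the resting inputs and 135, 155 and 160 CPM in the pulldowns (log2 fold change 0.71, SE 0.18, edgeR FDR = 0.00924). Kpna2 was 30.2, 28.4 and 18.1 CPM in the inputs and 15.1, 9.69 and 3.76 CPM in the pulldowns. It was the adaptor with the lowest value, at -1.34 in log2 (SE 0.38, FDR = 0.0144). Kpna2 has a processed pseudogene, and how reads with several matches were counted is not given in the sources used here. Kpna1, Kpna3 and Kpna4 had values between -0.45 and 0.12 that did not pass.

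Kpnb1, the receptor that these adaptors use, was 418, 482 and 522 CPM in the resting inputs and 268, 377 and 240 CPM in the pulldowns. The groups did not overlap (log2 fold change -0.67, SE 0.19, edgeR FDR = 0.0144). Ipo4, which imports histones and ribosomal proteins, was 168, 163 and 164 CPM in the inputs and 306, 304 and 337 CPM in the pulldowns, a rise of 0.95 in log2 (SE 0.21, FDR = 0.00504). Of its CDS, 68.5% is shared on the same strand with another protein-coding gene model, so its reads could also belong to that model. Ipo9 (0.97), Ipo13 (1.00) and Tnpo3 (0.83), the import receptor of splicing factors, also rose. Xpo1, the main export receptor for proteins, was 174, 127 and 146 CPM in the inputs and 261, 245 and 224 CPM in the pulldowns, without overlap, and its 0.72 in log2 did not pass (SE 0.44, FDR = 0.241).

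**Figure D1:**
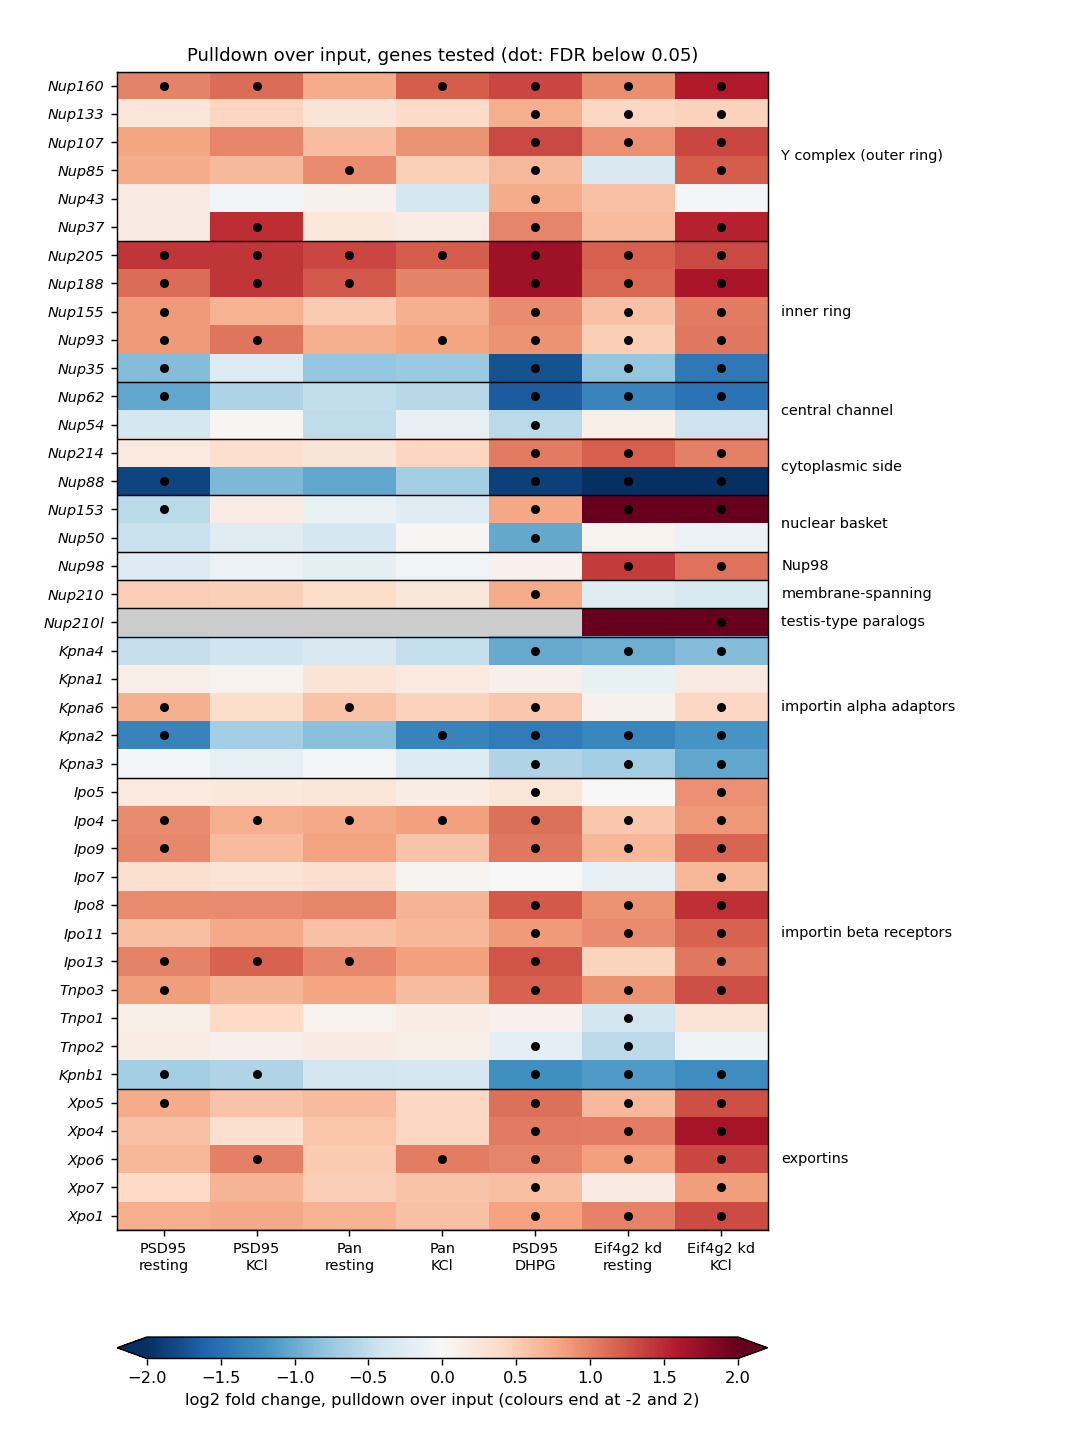
Log2 fold change of pulldown over input for the 41 genes tested in at least 1 fit (rows, by role and then by CDS length) in the 7 pulldown comparisons (columns), with black dots at an FDR below 0.05 and grey where a gene was not tested. Nup205 and Ipo4 are dotted in all 7 columns as higher, and the Kpna2 and Kpnb1 rows are blue throughout.

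With KCl depolarization and TurboID-PSD95, 8 of 40 members were higher in the pulldown and 1 was lower, against 8.21% and 4.39% of all genes. The medians were 0.41 over the members and -0.02 over all genes. Nup93, which anchors the inner ring, was 25.1, 25.9 and 30.9 CPM in the inputs and 68.5, 38.0 and 69.1 CPM in the pulldowns (log2 fold change 1.07, SE 0.24, edgeR FDR = 0.0105). Nup188 (1.43, FDR = 0.0168), Nup160 (1.12, FDR = 0.0196) and Nup205 (1.42, FDR = 0.0225) also rose. The member that fell was Kpnb1, at 439, 314 and 416 CPM in the inputs and 231, 288 and 257 CPM in the pulldowns (-0.60, FDR = 0.0393).

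With Pan-TurboID in resting neurons, 6 members were higher and 0 lower, against 4.55% and 5.05% of all genes. They were Nup205 (1.34), Nup188 (1.22), Ipo13 (0.97), Nup85 (0.95), Ipo4 (0.76) and Kpna6 (0.57), with FDRs between 0.0313 and 0.0463. In depolarized neurons 5 were higher and 1 lower, against 5.19% and 3.64%. Kpna2 was the one that fell, from 41.3, 30.8 and 25.1 CPM in the inputs to 10.7, 14 and 13 CPM in the pulldowns (-1.33, SE 0.38, edgeR FDR = 0.0341). Nup160 rose by 1.21 (FDR = 0.0217), Ipo4 by 0.81 (FDR = 0.0264) and the exportin Xpo6, which exports actin, by 1.02 (FDR = 0.0323).

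In the KCl experiment oligodendrocyte lineage markers summed to 210 to 507 CPM in the inputs and 86 to 352 CPM in the pulldowns of resting TurboID-PSD95 neurons, and to 131 to 208 CPM and 67.5 to 160 CPM after KCl. With Pan-TurboID they summed to 212 to 449 CPM and 80.1 to 215 CPM at rest, and to 147 to 343 CPM and 50.3 to 154 CPM after KCl. Their part in these results was not tested.

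An input and a pulldown of the same number were taken to come from the same culture. With the culture as a block, the members past the FDR were 26 (19 higher and 7 lower) in resting TurboID-PSD95, 22 (20 and 2) in depolarized TurboID-PSD95, 23 (18 and 5) in resting Pan-TurboID and 23 (19 and 4) in depolarized Pan-TurboID. Of all genes, 41.9%, 34.6%, 32.9% and 32% passed in the same order, so the calls increased across all genes. Xpo1 was then higher in all 4. The calls in these 4 comparisons also rested on single replicates, among all genes as well as among the members. Without replicate 3, no member passed in any of them, and of all genes at most 3 passed. Without replicate 2, the counts of members were 7, 6, 0 and 0 in the same order, and without replicate 1 they were 16, 4, 8 and 5. The shares of all genes in these last refits are not given here, so the counts do not single out the members.

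The direct comparison of the ligases asked whether TurboID-PSD95 enriched members beyond Pan-TurboID. No member differed by the edgeR test, and 0 had an unadjusted p below 0.05. Of all genes, 0.00768% were higher, which was Dlg4, and 0% were lower. An unadjusted p below 0.05 was found for 169 of the 13019 genes. This is under the share of 0.05 that such a limit would give with no difference at all, so the test was conservative. That no member passed therefore does not show that the ligases were alike for the members. The member with the smallest p was Kpnb1, whose pulldown over input was -0.28 in log2 lower with TurboID-PSD95 (SE 0.19). DESeq2, the likelihood ratio test and the fit with the culture as a block also passed no member.

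In the DHPG cultures, 26 of 40 members were higher in the pulldown and 10 were lower, against 40.5% and 39.3% of all genes. The medians were 0.74 over the members and 0.05 over all genes. DHPG replicates lay close together, with a chi-square per gene of 1.47 to 1.86 between inputs and 2.76 to 8.43 between pulldowns. In the KCl experiment it was 8.27 to 44.8. The FDRs and shares of the 2 experiments are therefore not on 1 scale. All 6 outer ring members and all 5 exportin members tested under the symbol rule rose, and both central channel members fell. Other genes of these parts have names outside the rule and are counted below. CDS length went with these values, as described below. Dividing cell markers summed to between 56.4 and 61.5 CPM in the DHPG inputs and between 97.2 and 113 CPM in the pulldowns, and oligodendrocyte lineage markers to between 40.1 and 45.8 CPM and between 15.6 and 21.3 CPM. Their part in the result was not tested.

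Nup188 was 51.1, 56.0 and 55.7 CPM in the DHPG inputs and 173, 170 and 168 CPM in the pulldowns (log2 fold change 1.70, SE 0.075, edgeR FDR = 8e-13). Nup205 rose by 1.70 (FDR = 2.22e-12) and Ipo4 by 1.10 (FDR = 8.34e-12). Nup107 (1.32), Nup160 (1.34), Ipo13 (1.26) and Ipo8 (1.22) rose by similar amounts. Xpo1 was 188, 200 and 210 CPM in the inputs and 379, 376 and 256 CPM in the pulldowns (0.81, FDR = 0.000175), and the pulldown of replicate 3 stood below the others.

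Kpnb1 was 330, 339 and 344 CPM in the DHPG inputs and 131, 146 and 141 CPM in the pulldowns (-1.23, SE 0.064, edgeR FDR = 4.81e-12). Kpna4, known as importin alpha 3, was 156, 154 and 159 CPM in the inputs and 72.3, 79.5 and 72.8 CPM in the pulldowns (-1.01, SE 0.073, FDR = 3.76e-10). Kpna2 fell by 1.40 in log2 (FDR = 3.62e-06) and Kpna3 fell by 0.60 (FDR = 2.75e-06). Kpna6 again went the other way, from 132, 142 and 147 CPM to 202, 195 and 195 CPM (0.54, SE 0.067, FDR = 6.56e-07). Nup35 (-1.74), Nup62 (-1.66) and Nup50 (-1.02), a basket protein that helps to release importin cargo, fell. Nup98 was 71.6, 72.6 and 72.9 CPM in the inputs and 82.1, 71.3 and 69.2 CPM in the pulldowns, which overlapped (0.08, FDR = 0.395).

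**Figure D2:**
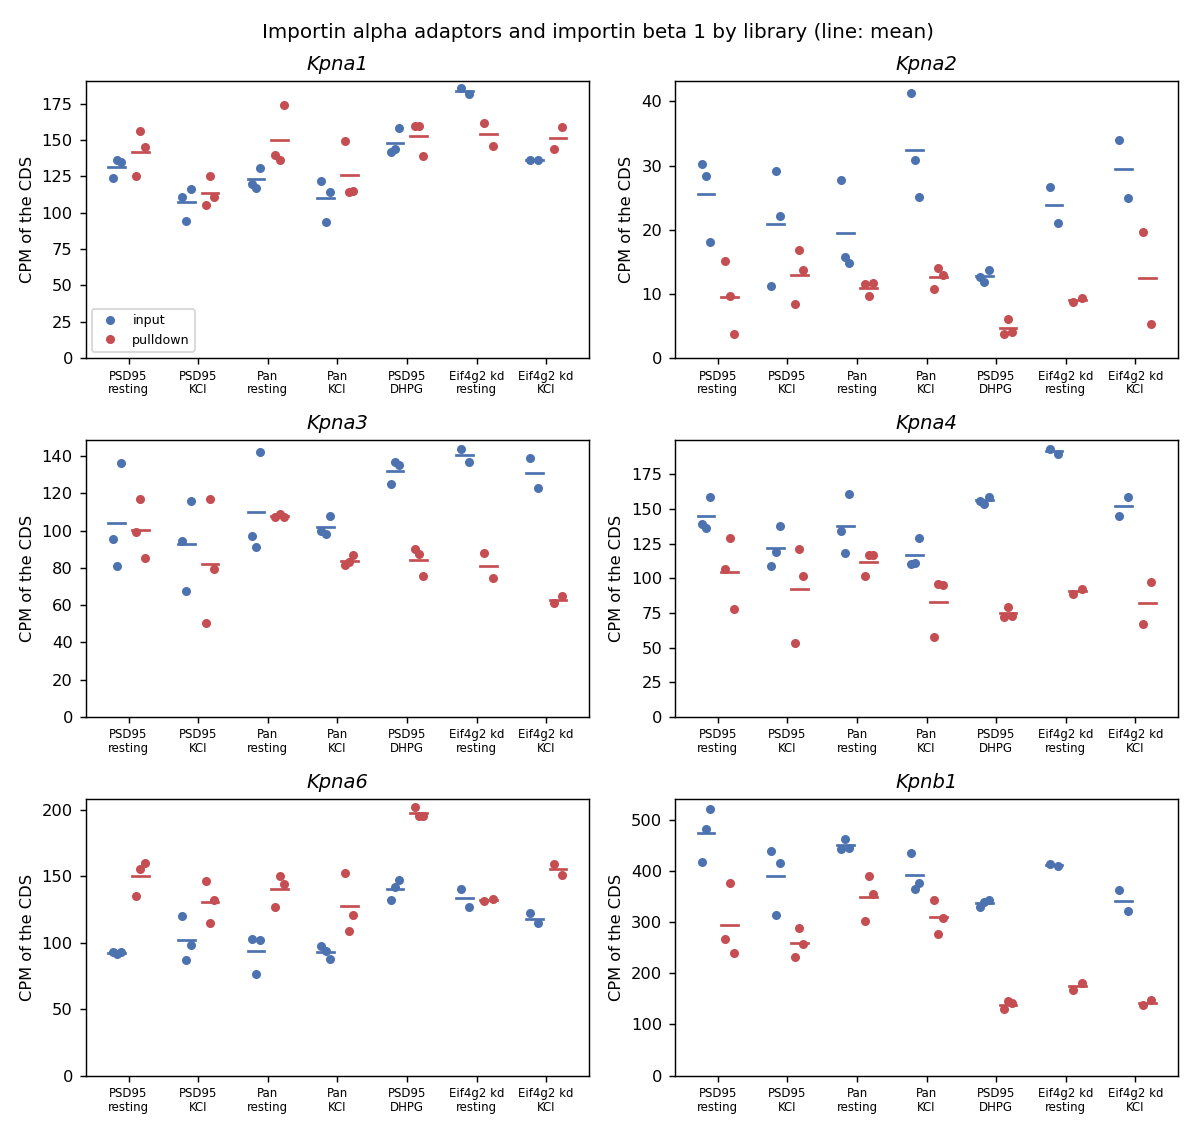
CPM of the CDS (y axis, linear, from 0) of the importin alpha adaptors Kpna1, Kpna2, Kpna3, Kpna4 and Kpna6 and of importin beta 1, Kpnb1, in each library (points) of the 7 conditions (x axis), inputs in blue and pulldowns in red, with lines at the group means. Pulldown points of Kpnb1 lie below its input points in each condition, while those of Kpna6 lie above in 5 of the 7 conditions without overlap.

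With the Eif4g2 knockdown in resting neurons, 19 of 41 members were higher in the pulldown and 9 were lower, against 22.1% and 23.4% of all genes. In depolarized knockdown neurons 27 were higher and 7 lower, against 24% and 24.8%. The 27 include Nup210l, which passed the filter through these pulldowns, with 15 and 7 counts there and 0 and 2 in the inputs. The medians over the members were 0.50 and 1.01, and those over all genes were -0.01 and 0.00. Kpnb1, Nup62, Kpna2, Kpna3 and Kpna4 fell in both conditions, and Nup153 and Nup98 rose in both. Each knockdown group had 2 libraries. Oligodendrocyte lineage markers summed to between 148 and 158 CPM in the resting knockdown inputs and between 79 and 104 CPM in the pulldowns, and to between 143 and 161 CPM and between 46.7 and 61.6 CPM after KCl. Dividing cell markers were at 293 to 307 CPM in the resting inputs and 484 to 486 CPM in the pulldowns, and at 407 to 416 CPM and 744 to 785 CPM after KCl. Neuronal markers were at 9770 to 9910 CPM in the resting inputs and 7570 to 7690 CPM in the pulldowns. After KCl they were at 7730 to 7840 CPM and 5780 to 5830 CPM. Astrocyte markers at rest were at 959 to 1000 CPM and 651 to 764 CPM. After KCl they were at 1160 to 1270 CPM and 943 to 1160 CPM. Microglial markers at rest were at 58.5 to 62.7 CPM and 71.3 to 89.2 CPM. After KCl they were at 63.6 to 65.5 CPM and 88.8 to 109 CPM. Their part in the result was not tested.

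Kpnb1 was 414 and 410 CPM in the resting knockdown inputs and 168 and 182 CPM in the pulldowns (-1.14, SE 0.10, edgeR FDR = 2.04e-09). In the depolarized knockdown it was 363 and 321 CPM in the inputs and 138 and 147 CPM in the pulldowns (-1.24, FDR = 9.21e-10). Kpna4 fell by 0.98 in log2 (FDR = 3.46e-06) in the resting and by 0.87 (FDR = 4.1e-05) in the depolarized knockdown. Kpna3 fell by 0.68 and by 1.04, and Nup62 by 1.33 and by 1.47. Xpo1 was 186 and 189 CPM in the resting inputs and 371 and 322 CPM in the pulldowns (0.99, SE 0.097, FDR = 6.43e-09). It was 284 and 255 CPM in the depolarized inputs and 656 and 654 CPM in the pulldowns (1.30, SE 0.099, FDR = 5.82e-11).

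Nup153 was 112 and 105 CPM in the resting knockdown inputs and 1050 and 1080 CPM in the pulldowns, from 4735 and 2549 counts. The log2 fold change was 3.40 (SE 0.12, edgeR FDR = 1.22e-17). In the depolarized knockdown it was 99.6 and 104 CPM in the inputs and 500 and 681 CPM in the pulldowns (2.56, SE 0.12, FDR = 1.28e-14). The pulldowns of the KCl experiment, with the same ligase and no siRNA, held 98.5, 96.9 and 102 CPM at rest and 175, 138 and 113 CPM after KCl. The DHPG pulldowns held 136, 139 and 120 CPM. The highest Nup153 pulldown outside the knockdown was therefore below the lowest knockdown pulldown.

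Nup98 was 104 and 108 CPM in the resting knockdown inputs and 278 and 240 CPM in the pulldowns (1.39, SE 0.12, edgeR FDR = 4.58e-10). In the depolarized knockdown it was 126 and 133 CPM in the inputs and 248 and 292 CPM in the pulldowns (1.09, SE 0.12, FDR = 5.08e-08). In the 4 comparisons of the KCl experiment its log2 fold change was between -0.26 and -0.05.

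The difference between the knockdown and the KCl experiment was tested in 1 fit over 20 libraries, added after these values were seen. For resting neurons, Nup153 differed by 3.88 in log2 (SE 0.29, edgeR FDR = 5.74e-09) and had the smallest p of the 13197 genes. Nup98 differed by 1.60 (SE 0.28, FDR = 0.00238). These were the 2 members called, and 1.02% of all genes were called higher and 0.0152% lower. Without replicate 1 and without replicate 2, 1 member passed. For depolarized neurons Nup153 differed by 2.40 (SE 0.28, FDR = 7.08e-05) and was 1 of the 7 genes called higher, 0.053% of all, while 0.00758% were called lower. Nup98 differed by 1.19 and did not pass (FDR = 0.152). With the culture as a block 5 members passed for resting neurons and 2 for depolarized neurons, Nup98 among the latter (FDR = 0.00758), beside 3.57% and 2.33% of all genes. Without replicate 2, no member passed for depolarized neurons.

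**Figure D3:**
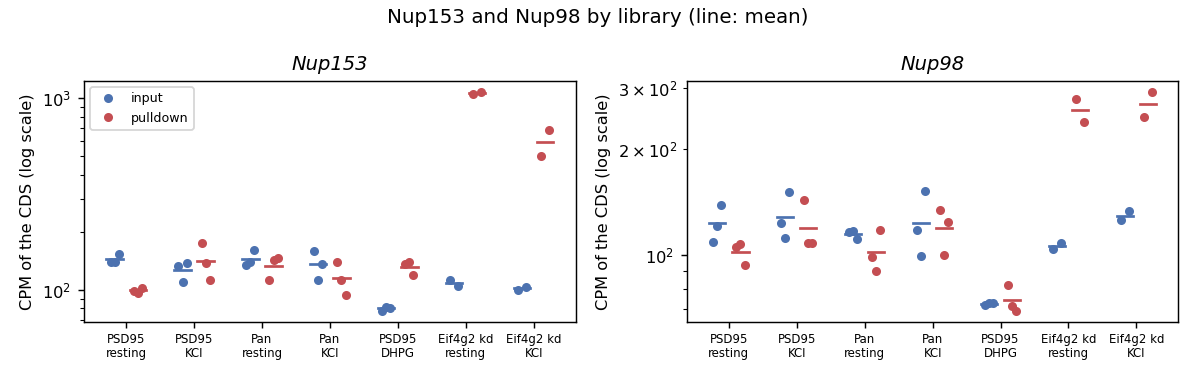
CPM of the CDS (y axis, log scale) of Nup153 and Nup98 in each library (points) of the 7 conditions (x axis), inputs in blue and pulldowns in red, with lines at the group means. The resting knockdown pulldowns of Nup153 sit at 1050 and 1080 CPM, above the other libraries, while its knockdown inputs sit within the range of the other inputs.

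The added Nup153 counts did not spread over its whole CDS. The split was placed after the counts along the CDS had been seen and is given as a description, with no test. Segments 1 to 14 (codons 1 to 571, 39.0% of the CDS) held 32.4 and 35.9 CPM in the resting knockdown inputs and 34.3 and 28.4 CPM in the pulldowns. Segments 15 to 22 held 79.6 and 69.1 CPM in the inputs and 1015 and 1052 CPM in the pulldowns. The pulldowns thus overlapped the inputs in the first 14 segments and stood far above them in the rest. In the depolarized knockdown the first part held 31.7 and 30.7 CPM in the inputs and 21.2 and 18.5 CPM in the pulldowns, and the second part rose from 67.9 and 73.3 CPM to 479 and 663 CPM. In the DHPG cultures, segments 1 to 14 took 36.9% of the input count and 12.5% of the pulldown count. In resting TurboID-PSD95 neurons their share was 28.9% in the inputs and 28.1% in the pulldowns.

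In Nup98 2 stretches of the CDS were higher in the knockdown pulldowns, one in the middle and one at the 3′ end. Segments 13 to 19 (codons 532 to 931), which include the cut site printed above, held 17.9 and 20.3 CPM in the resting knockdown inputs and 175 and 140 CPM in the pulldowns. Their share of the Nup98 count went from 17.99% ± 1.10 to 60.7% ± 3.29 (SD, n = 2). On their 5′ side, segments 1 to 12 fell from 34.5% ± 0.97 to 4.37% ± 1.18, and on their 3′ side, segments 20 to 22 fell from 23.5% to 3.46%. Segments 23 to 32 held 24.3 and 26.6 CPM in the inputs and 76.7 and 84.5 CPM in the pulldowns, and their share went from 24.0% to 31.4%. The middle stretch began before the cut, at codon 532, and ended after it, at codon 931. The bounds of these stretches are segment edges chosen after the counts had been seen, so the shares are a description with no test. Whether the stretch has any link to the cut was not tested.

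The depolarized knockdown had the same pattern, with 14.6% in segments 13 to 19 in the inputs and 53.7% in the pulldowns. Segments 23 to 32 held 34.9 and 30.7 CPM in its inputs and 96.7 and 99.3 CPM in its pulldowns. Without the siRNA, segments 13 to 19 took 21.2% of the input and 20.6% of the pulldown count in resting TurboID-PSD95 neurons, and 23.3% and 25.4% in the DHPG cultures. Segments 23 to 32 were higher in these pulldowns too. They held 19.7, 9.8 and 18.8 CPM in the inputs and 43, 38.5 and 41.3 CPM in the pulldowns of resting neurons, and 13.9, 13.6 and 14.2 CPM and 46.2, 39.3 and 40.1 CPM in the DHPG cultures. In depolarized TurboID-PSD95 neurons, segments 13 to 19 held 20.9, 27.6 and 35.5 CPM in the inputs and 64.8, 22.4 and 21.1 CPM in the pulldowns. Their share of the pulldown count there was 28.49% ± 14.57 (SD, n = 3), and replicate 1 alone was at 45.3%, near the 52.3% and 55.0% of the depolarized knockdown pulldowns.

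**Figure D4:**
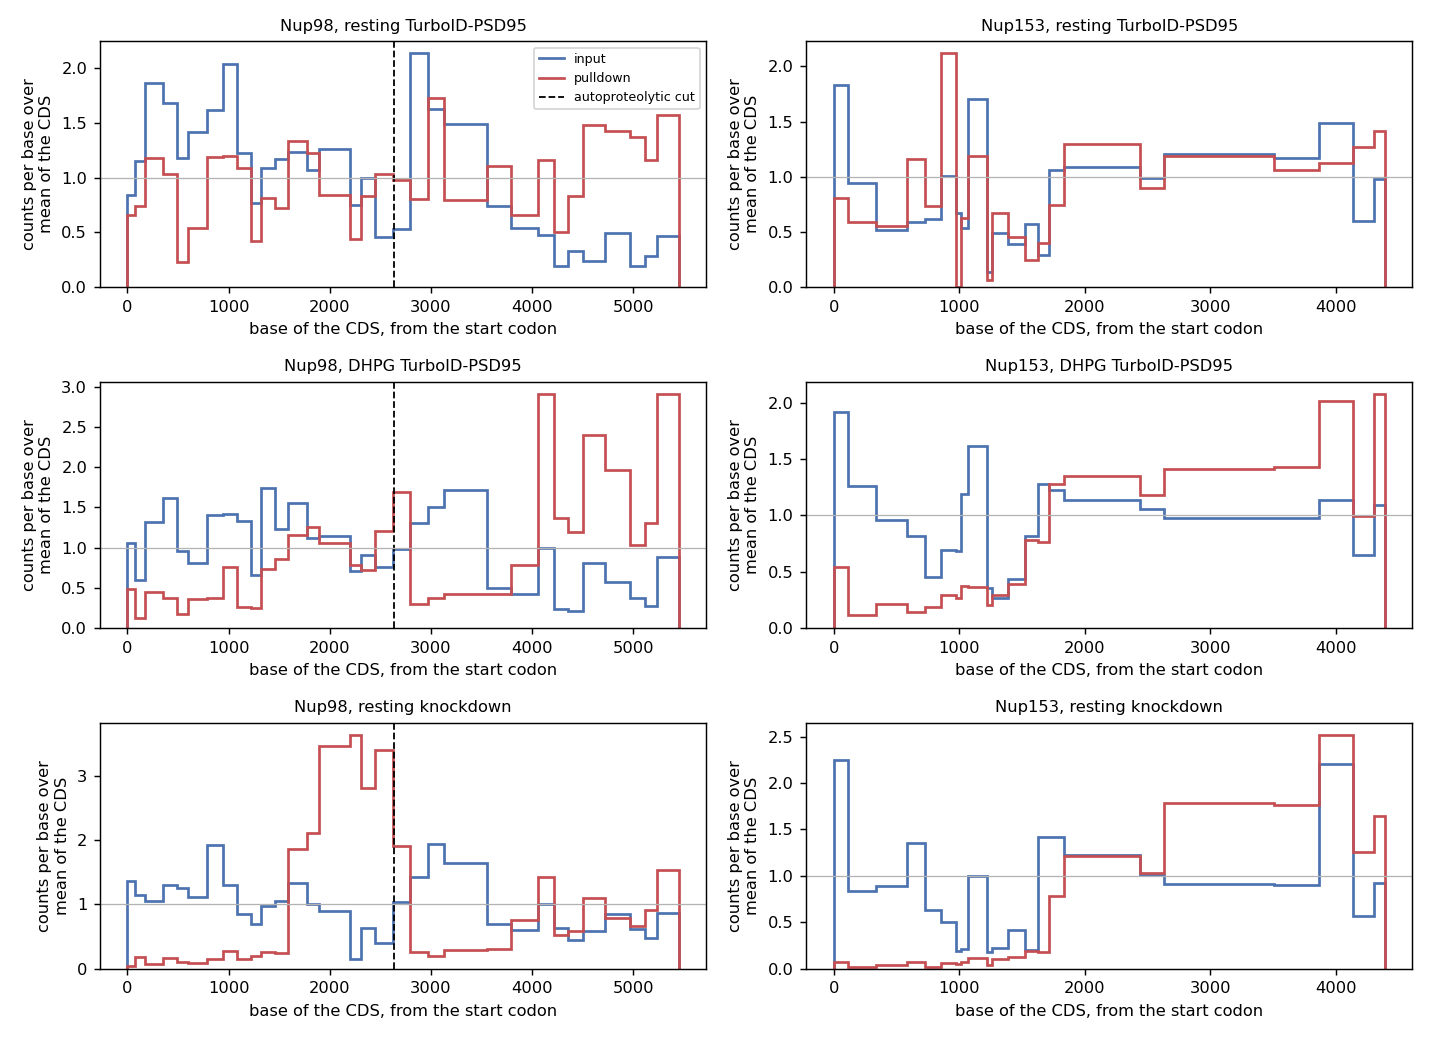
Counts per base of each CDS segment over the mean of the whole CDS (y axis) along the CDS from the start codon (x axis, bases) for Nup98 (left) and Nup153 (right), as summed replicates of the inputs (blue) and pulldowns (red) of resting TurboID-PSD95, DHPG and resting knockdown cultures. The dashed line marks the Nup98 cut, and in the knockdown row the pulldown stands over a middle block of Nup98 and over the Nup153 CDS from segment 15 on.

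CDS length went with the pulldown values in every comparison. Across members the Spearman correlation of CDS length with log2 fold change was 0.46 to 0.675 (40 or 41 genes) and across all genes 0.515 to 0.619. Genes are not independent replicates, and these correlations describe the libraries. Members with a CDS under 2000 nt, 13 in number, had medians between -0.60 and -0.17, and longer members had medians between 0.55 and 1.12. All genes under 2000 nt had medians between -0.38 and -0.22, and longer genes between 0.30 and 0.74.

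When each library's trend of count with CDS length was removed, fewer members passed in the KCl experiment. The counts were 7 (2 higher, 5 lower) and 2 for TurboID-PSD95 at rest and after KCl, and 0 and 1 for Pan-TurboID. Of all genes, 12.2%, 4.19%, 1.34% and 1.48% then passed. In the DHPG cultures 33 members passed, beside 68.1% of all genes. In the knockdown 21 passed at rest and 29 after KCl, beside 33.4% and 35.5% of all genes. Kpnb1 has a CDS of 2631 nt and lay below the trend, as did Tpr (7074 nt), a basket protein outside the symbol rule whose DHPG value was -1.18 in log2. Kpna6 at 1611 nt lay above it. Nup98 was 0.08 in the DHPG cultures and became -0.74 (FDR = 2.56e-07) with the trend removed.

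**Figure D5:**
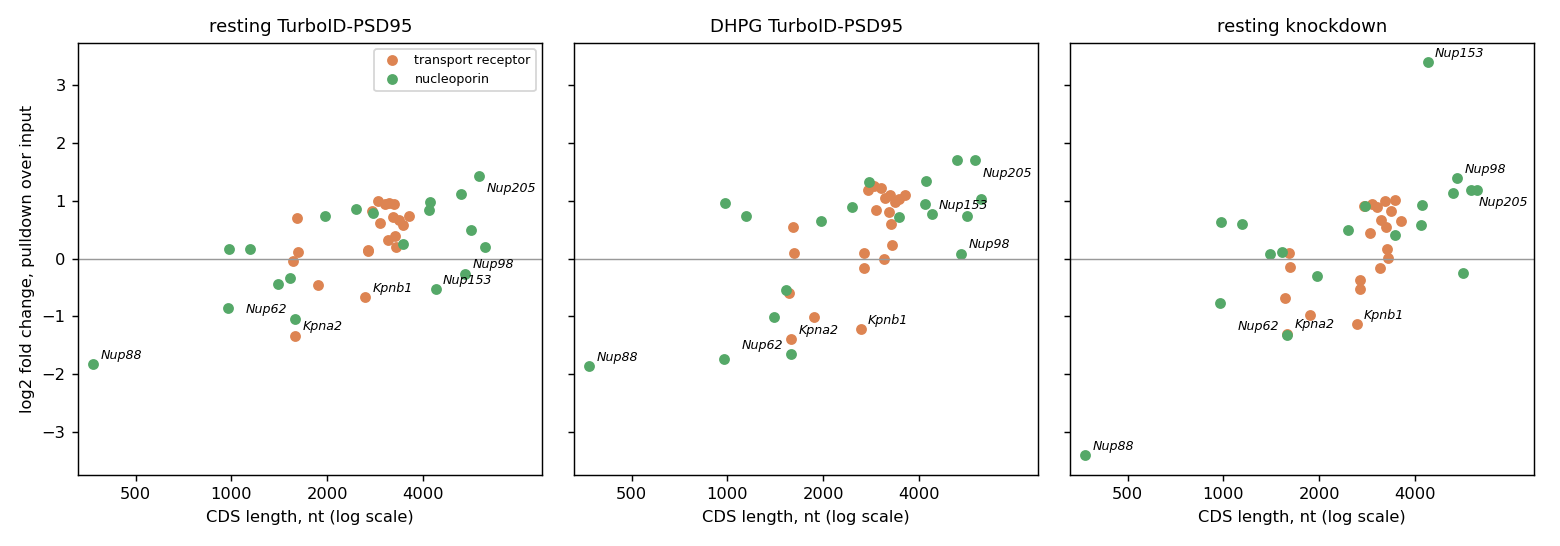
Log2 fold change of pulldown over input (y axis) against CDS length in nt (x axis, log scale) for the members tested in resting TurboID-PSD95, DHPG and resting knockdown cultures, nucleoporins in green and transport receptors in orange, without Nup210l. Points rise from left to right in each panel, Nup153 stands at the top of the knockdown panel, and Kpnb1 lies under receptors of similar length.

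The calls of the 7 pulldown comparisons were also counted by member in the main fits. Nup205 (1.20 to 1.70 in log2) and Ipo4 (0.54 to 1.10) passed the FDR as higher in all 7. Nup188, Nup160 and Nup93 did so in 6, Ipo13 and Xpo6 in 5, and Kpna6, Ipo9, Tnpo3, Xpo5 and Nup155 in 4. Kpna2 (-1.40 to -0.68) and Kpnb1 (-1.24 to -0.34) had values below 0 in all 7 and passed as lower in 5. Nup62, Nup35 and Nup88 passed as lower in 4. The share of all genes called in this many comparisons was not counted. With the CDS length trend removed, 0 members passed in resting Pan-TurboID, so none then passed in all 7. Without replicate 3, no member passed in the 4 comparisons of the KCl experiment. The 4 comparisons of the KCl experiment share 1 fit, and those of the knockdown share another. The longest Nup88 transcript has a CDS of 367 nt in 1 segment, so its counts cover a small part of the gene. Kpna1, importin alpha 5, passed in 0 of 7, with values between -0.14 and 0.28. Its inputs in resting TurboID-PSD95 neurons were 124, 136 and 135 CPM and its pulldowns 125, 156 and 145 CPM.

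For many members the pulldowns held relatively more counts late in the CDS than the inputs. The 3′ part of the CDS was compared with the 5′ part, pulldown over input, in a test added after the data were seen. The CDS was split at its middle, and each segment went to the side on which its own middle lay. At rest with TurboID-PSD95, 17 of 38 members shifted to the 3′ part and 0 to the 5′ part, against 25.9% and 0.179% of all genes. The median shift was 1.16 in log2 over the members and 0.95 over all genes. In depolarized TurboID-PSD95 neurons 15 shifted to the 3′ part and 0 to the 5′ part (24.8% and 0.0752% of all genes). With Pan-TurboID the counts were 7 and 0 at rest (10.9% and 0.0188%) and 12 and 0 after KCl (17.1% and 0.0846%). In the DHPG cultures 36 of 38 shifted to the 3′ part and 0 to the 5′ part (71.2% and 2.63%). The knockdown gave 23 and 1 at rest (36% and 1.94%) and 26 and 1 after KCl (45.9% and 1.26%). The member that shifted to the 5′ part after KCl was Kpna2, which had 49 and 11 counts in those pulldowns. The direction was that of all genes.

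With the culture as a block, 23, 24, 20 and 25 members shifted to the 3′ part in resting and depolarized TurboID-PSD95 and in resting and depolarized Pan-TurboID neurons. Of all genes, 38.4%, 39%, 30.8% and 34.5% passed in either direction. Without replicate 3, no member passed in these 4 comparisons. Without replicate 2, 7 passed in resting TurboID-PSD95, 0 in resting Pan-TurboID and 7 in depolarized Pan-TurboID neurons.

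Ipo11, the import receptor of ubiquitin-conjugating enzymes, had 40.8, 26.6 and 31.4% of its count in the 3′ part in the resting TurboID-PSD95 inputs and 68.2, 62.2 and 73.9% in the pulldowns. The groups did not overlap, and the shift was 2.13 in log2 (SE 0.42, edgeR FDR = 0.00227). In the DHPG cultures it went from 43.4, 42.3 and 40.8% to 78.5, 79.2 and 80.7% (2.41, FDR = 6.68e-19). Kpna6 went from 55.1, 44.4 and 57.5% to 77.7, 77.0 and 75.1% in resting TurboID-PSD95 neurons (1.58, FDR = 0.00408). Ipo9 shifted by 1.70 (FDR = 0.00269) there and by 2.05 (FDR = 4.91e-19) in the DHPG cultures.

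The 3′ share of Kpnb1 was 50.9, 60.8 and 55.3% in the resting TurboID-PSD95 inputs and 65.8, 63.4 and 58.9% in the pulldowns, and its shift passed in the DHPG cultures alone (0.55, edgeR FDR = 4.31e-06). In the knockdown its shift was -0.11 at rest and -0.07 after KCl. Nup153 went from 46.6 and 48.3% to 75.8 and 82.2% in the resting knockdown (2.06, SE 0.18, FDR = 1.07e-09). Without the siRNA its shift was -0.02 in resting TurboID-PSD95 neurons and 1.26 in the DHPG cultures (FDR = 2.32e-10). Nup214, a repeat protein of the cytoplasmic side that helps export, shifted by 2.19 in the resting knockdown (FDR = 4.67e-07) and by 1.53 in the DHPG cultures (FDR = 5.21e-12). In resting TurboID-PSD95 neurons its -0.16 did not pass. Nup98 was the member that shifted to the 5′ part in the resting knockdown (-0.77, SE 0.22, FDR = 0.00659). The sign depended on where the CDS was divided. With the CDS in 3 parts, the last against the first gave 2.14.

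The response to KCl itself was compared in inputs and in pulldowns. In the inputs of the KCl experiment 0 of 40 were higher and 2 were lower, against 6.32% and 9.03% of all genes, and both were lost without replicate 2 or replicate 3. Per the study's methods, resting and activated samples of 1 biological replicate were handled at the same time. With the replicate number as a block 3 members passed, beside 19.5% of all genes. Nup210, a membrane-spanning nucleoporin, was 126, 129 and 171 CPM in the resting and 118, 75.1 and 86.7 CPM in the depolarized TurboID-PSD95 inputs. With Pan-TurboID it was 147, 145 and 145 CPM at rest and 151, 88.6 and 82.6 CPM after KCl. The log2 fold change over both ligases was -0.52 (SE 0.17, edgeR FDR = 0.0319), and the first replicate did not fall with Pan-TurboID. Ipo4 fell by 0.45 in log2 (SE 0.15, FDR = 0.0423). Neuronal markers in the TurboID-PSD95 inputs summed to 8860 to 9790 CPM at rest and 7210 to 8610 CPM after KCl. Oligodendrocyte lineage markers there summed to 210 to 507 CPM and 131 to 208 CPM. With Pan-TurboID the resting and depolarized ranges of both lists overlapped. Their part in these values was not tested.

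Xpo1 was 291, 92.3 and 253 CPM in the depolarized TurboID-PSD95 inputs and 516, 181 and 211 CPM in the depolarized Pan-TurboID inputs, against 127 to 174 CPM at rest. Its replicates stood far apart and its 0.76 in log2 did not pass (SE 0.31, edgeR FDR = 0.107).

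In the pulldowns of the KCl experiment 2 members were higher and 3 were lower after KCl, against 9.83% and 8.99% of all genes. Neuronal markers in the TurboID-PSD95 pulldowns summed to 7510 to 8960 CPM at rest and 6390 to 7210 CPM after KCl. With Pan-TurboID they overlapped, at 8840 to 10000 CPM and 8200 to 10400 CPM. Their part in these values was not tested. Nup54, a partner of Nup62 in the central channel, rose by 0.67 in log2 (SE 0.20, edgeR FDR = 0.021) and Nup88 by 1.22 (FDR = 0.0166), the latter in 2 of 3 replicates. Nup210 fell by 0.61 (FDR = 0.0103), Ipo4 by 0.53 (FDR = 0.012) and Tnpo3 by 0.56 (FDR = 0.0313). Without replicate 3 no member passed, without replicate 2 it was 1, and without replicate 1 it was 8. With the replicate number as a block it was 7, beside 22.4% of all genes. The KCl response of pulldown over input passed for 0 members and for 0% of all genes higher and 0% lower by the edgeR test. At an unadjusted p below 0.05, it was 0 members and 263 of the 13019 genes, and DESeq2 also called 0 members. A share under 0.05 is less than such a limit gives with no difference at all. The test was thus conservative and does not show that KCl left pulldown over input unchanged. The smallest p was that of Xpo6, at 0.42 in log2 (SE 0.28).

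In the knockdown, KCl moved 2 members up and 6 down in the inputs, against 8.98% and 10.3% of all genes. Xpo1 rose from 186 and 189 CPM to 284 and 255 CPM (0.55, SE 0.098, edgeR FDR = 0.000163) and Nup205 by 0.59 (FDR = 0.00102). Tnpo3 went from 121 and 111 CPM to 68.7 and 67.6 CPM (-0.74, FDR = 0.000202). Ipo5, which imports ribosomal proteins, fell by 0.59 (FDR = 4.58e-05) and Nup85 by 0.78 (FDR = 0.0064). In these inputs dividing cell markers summed to 293 to 307 CPM at rest and 407 to 416 CPM after KCl, astrocyte markers to 959 to 1000 CPM and 1160 to 1270 CPM, and neuronal markers to 9770 to 9910 CPM and 7730 to 7840 CPM. Their part in the result was not tested.

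In the knockdown pulldowns 13 members were higher and 3 lower after KCl, against 10.2% and 12% of all genes. Xpo1 rose from 371 and 322 CPM to 656 and 654 CPM (0.86, SE 0.097, edgeR FDR = 2.56e-07), Tnpo1, the import receptor of many RNA-binding proteins, by 0.80 (FDR = 7.41e-05) and Nup205 by 0.71 (FDR = 7.67e-05). Nup153 fell by 0.91 (SE 0.11, FDR = 4.79e-07), Kpnb1 by 0.35 (FDR = 0.029) and Tnpo3 by 0.35 (FDR = 0.0477). The dividing cell markers given above were also higher after KCl in these pulldowns, and the oligodendrocyte lineage markers were lower. Neuronal markers summed to 7570 to 7690 CPM at rest and 5780 to 5830 CPM after KCl. Astrocyte markers summed to 651 to 764 CPM and 943 to 1160 CPM. Their part in these values was not tested.

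The inputs were also compared across experiments, in which treatment and experiment cannot be told apart. Against resting TurboID-PSD95 inputs, the DHPG inputs had 3 members higher and 7 lower (12.2% and 16% of all genes). Nup153 was 77.9, 81.3 and 80.8 CPM with DHPG and 140, 140 and 154 CPM at rest (-0.90, SE 0.12, edgeR FDR = 3.08e-05). Nup98 (-0.81, FDR = 0.000266), Nup210 (-0.83, FDR = 0.00108), Kpna2 (-1.06, FDR = 0.00684) and Kpnb1 (-0.53, FDR = 0.00453) were also lower. Tnpo2 (0.65, FDR = 0.00105), Kpna6 (0.56, FDR = 0.00245) and Nup155 (0.71, FDR = 0.0272) were higher. Without replicate 2, 4 members passed. The dividing cell markers summed to between 56.4 and 61.5 CPM in these DHPG inputs and between 135 and 276 CPM in the resting inputs. Astrocyte markers summed to between 314 and 322 CPM with DHPG and between 866 and 1610 CPM at rest, and oligodendrocyte lineage markers to between 40.1 and 45.8 CPM and between 210 and 507 CPM. The part of these cell types in the result was not tested.

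The resting knockdown inputs had 7 members higher and 2 lower than the resting TurboID-PSD95 inputs (7.27% and 9.1% of all genes). Nup85 of the outer ring was 57 and 56.9 CPM with the siRNA and 24.8, 27.5 and 22.6 CPM without it (1.15, SE 0.19, edgeR FDR = 0.000467). Nup205 (0.92) and Tnpo2 (0.55) were higher, and Nup62 (-0.59) and Nup153 (-0.45) were lower. In the depolarized inputs 5 were higher and 1 lower (8.66% and 10.6%). Nup205 was 110 and 125 CPM with the siRNA and 54.0, 24.1 and 46.1 CPM without it (1.46, SE 0.24, FDR = 0.000434), and Nup62 was again lower (-0.71, FDR = 0.00679). Leaving out 1 replicate number left 0 to 3 members at rest and 0 to 7 after KCl. Markers of dividing cells summed to between 293 and 307 CPM in the resting knockdown inputs and to between 135 and 276 CPM in the resting inputs without siRNA. In the depolarized inputs they summed to between 407 and 416 CPM with the siRNA and between 82 and 212 CPM without it. Microglial markers summed to 58.5 to 62.7 CPM with the siRNA and 15.1 to 29.8 CPM without it at rest, and to 63.6 to 65.5 CPM and 12.1 to 24.8 CPM after KCl. Oligodendrocyte lineage markers at rest were at 148 to 158 CPM with the siRNA and 210 to 507 CPM without it. Their part in these values was not tested.

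Other genes of the pathway, which the symbol rule does not hold, were counted in the same fits. Of 12 nucleoporins with other names, 6 were higher and 4 lower in the DHPG pulldowns, where 40.5% of all genes were higher and 39.3% lower. Pom121, a membrane-anchored nucleoporin, was at 1.56 in log2, Ahctf1, which starts pore assembly on chromatin, at 1.45, and Ranbp2, the large cytoplasmic filament protein, at 1.01. Nupl1, the Nup58 partner of Nup62, was at -1.33, so the 3 genes of the central channel were all lower. Nup62 (1581 nt) and Nup54 (1533 nt) have short CDSs. Under 2000 nt, the DHPG medians were -0.60 over the members and -0.38 over all genes. The part of CDS length in the values of these lists, the Ran cycle and mRNA export genes included, was not tested. Of 4 receptors with other names, Xpot, the export receptor for tRNA, and Ranbp17 rose (1.19 and 1.14), and Cse1l, which returns importin alpha to the cytoplasm, was at -0.17 and did not pass.

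Of the Ran cycle, 7 of 8 genes were tested in the DHPG cultures, of which 2 were higher and 4 lower, against the same 40.5% and 39.3%. Ran was at 0.53 in log2, while its regulators Ranbp1 (-1.58), Ranbp3 (-1.13) and Rangap1 (-0.70) and its import factor Nutf2 (-0.89) were lower. Of 13 mRNA export genes, 3 were higher and 7 lower in the DHPG pulldowns, where 40.5% of all genes were higher and 39.3% lower, among them Alyref (-1.65) and Nxf1 (-1.49), the adaptor and the receptor of mRNA export. Pom121 also differed between the resting knockdown and the resting KCl experiment, by 1.87 in log2 of pulldown over input (SE 0.34, edgeR FDR = 0.00341). In the resting knockdown, the Ran cycle had 0 higher and 4 lower and mRNA export 1 higher and 4 lower, beside 22.1% and 23.4% of all genes.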

How the data were processed

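Ribosome profiling libraries of primary mouse cortical neurons were analysed. Per the labels and the study's methods, the authors demultiplexed and trimmed reads, cut a UMI, removed rRNA reads and duplicates, aligned to mm10 with Rsubread, and deposited raw counts of 5′ read ends (25 to 100 nt) per UTR and CDS segment from plastid. How reads with several matches and strand were treated is not given in the sources used here. Transcripts were named through GENCODE M21 (66664 of 67238), and CDS counts of the longest transcript per gene were tested. Names, segments and the Nup98 bases came from mm10/GRCm38 annotation and the RefSeq genome sequence of that build.

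Counts were fitted with edgeR 4.0.16 in R 4.3.3 (TMM, filterByExpr, robust quasi-likelihood F test, Benjamini-Hochberg over all genes, FDR 0.05), in fits of 24 (KCl), 6 (DHPG), 8 (knockdown), 13 (inputs) and 20 (across experiments) libraries. SE is the size of the log2 fold change over the square root of F. CPM used the TMM library sizes. The scripts were tested on simulated counts. Alternatives were the likelihood ratio test of edgeR, DESeq2 1.42.0, RLE size factors, no filter, the transcript with the highest count, a removed CDS length trend, a replicate block and leaving out replicates. The total count of a library was between 5906281 and 35643247. Of the 34 pairs of replicates within a group, none matched within sampling noise (chi-square per gene 1.47 to 44.8). The values were 1.47 to 1.86 in the DHPG inputs, 2.76 to 8.43 in the DHPG pulldowns and 2.79 to 4.5 in the knockdown groups. In the KCl experiment they were 8.27 to 44.8. FDRs and shares called were thus set against a spread that differed between experiments.

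Members and lists were chosen with earlier results of these data known. Values given in full are those of up to 3 members per direction and comparison with the smallest p among those past the FDR whose replicate pairs all moved that way, and of Kpna2, Kpnb1, Xpo1 and Nup98. Nup35 at rest and Kpna1 were added after their values were seen, and so were the stretches of the Nup98 and Nup153 CDS. The study's methods state that input and pulldown come from 1 monosome fraction, and libraries of 1 number were taken as such pairs. Deviations of these pairs correlated at -0.178 to 0.648, with 12 of 19 over 0.1. Pairs of the KCl experiment were at 0.29 to 0.648, DHPG pairs at -0.178 to 0.0431 and knockdown pairs at 0.0043 to 0.0067. The pairing thus rests on the numbers alone in the DHPG and knockdown groups. Of same-number pairs of different cultures, 16 of 28 were over 0.1 (-0.21 to 0.627). Those of TurboID-PSD95 with Pan-TurboID were at 0.146 to 0.627. The main fits treat these libraries as independent. The labels place some DHPG and knockdown libraries in the cytosol while naming the TurboID-PSD95 virus, and the virus was used. No sources used here say that cultures of different numbers came from different litters, so p-values measure the spread between these samples.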

Additional observations from a re-analysis of the deposited data

Results flagged for a closer look

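The difference in pulldown over input between the knockdown and the KCl experiment stood out for 3 values. For Nup153 it was 3.88 in log2 at rest and 2.40 after KCl, and for Nup98 it was 1.60 at rest, each tested as the difference itself in edgeR over 20 libraries. The knockdown and the experiment cannot be told apart in these values.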

How the results depend on the processing

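The counts of members past the FDR moved by over 1.5 times under these settings. With a replicate block, pulldown over input gave 26 members in resting and 22 in depolarized TurboID-PSD95 and 23 in both Pan-TurboID comparisons, and the difference between knockdown and KCl experiment gave 5 at rest and 2 after KCl. For pulldown over input the block is the culture and by construction compares within cultures. For the KCl responses of inputs or pulldowns and for inputs across experiments, it is the replicate number and compares between cultures. In the remaining comparisons the block did not move the count by over 1.5 times. With the CDS length trend removed, the counts were 7, 2, 0 and 1 for resting and depolarized TurboID-PSD95 and resting and depolarized Pan-TurboID. DESeq2 gave 10 in resting Pan-TurboID and 2 for the depolarized knockdown difference, where the likelihood ratio test also gave 2. RLE size factors and the transcript with the highest count each gave 1 for the KCl response of inputs. For the shift to the 3′ part, the likelihood ratio test and the last against the first of 3 parts of the CDS gave 12 and no filter gave 13 in resting Pan-TurboID, and the replicate block gave 24, 20 and 25 in depolarized TurboID-PSD95, resting Pan-TurboID and depolarized Pan-TurboID. Leaving out 1 replicate number gave 0 to 16 members in resting and 0 to 6 in depolarized TurboID-PSD95, 0 to 8 in resting and 0 to 5 in depolarized Pan-TurboID, 0 to 5 for the KCl response of inputs, 0 to 8 for that of pulldowns, 4 to 7 for DHPG inputs, 0 to 3 for resting and 0 to 7 for depolarized knockdown inputs, 1 to 2 for the resting and 0 to 1 for the depolarized knockdown difference. For the 3′ shift it gave 0 to 17 and 0 to 12 with TurboID-PSD95 and 0 to 7 and 0 to 12 with Pan-TurboID. Shares of all genes are not given for most of these refits, so such counts do not single out the members. Of the values of single members under these settings, 1229 were unchanged in call, 113 lost their call and 17 gained one. With the CDS length trend removed 18 lost their call, and most others were lost when 1 replicate number was left out. Another 2 values changed sign. Nup98 in the DHPG pulldowns became -0.74 with the length trend removed, and its 3′ shift in the resting knockdown became 2.14 with the CDS in 3 parts in place of 2. The cause was not tested. The knockdown fits could not be refitted without a replicate, since no residual degrees of freedom remained, and where a knockdown sample stood alone in a wider fit it was assumed to vary like the other groups. Genes with few counts, such as Nup37 and Nup210l, have wide errors at this depth.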
